A study of Sus scrofa with 92 samples.

Results

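The mitochondrially encoded ND and CYTB genes are the 8 protein-coding genes ND1, ND2, ND3, ND4, ND4L, ND5, ND6 and CYTB of the pig (Sus scrofa) mitochondrial genome. They were found by their gene symbol among 25322 gene IDs, and 8 of 8 were present. In the files they carry the Ensembl IDs ENSSSCG00000018065 (ND1), ENSSSCG00000018069 (ND2), ENSSSCG00000018084 (ND3), ENSSSCG00000018087 (ND4), ENSSSCG00000018086 (ND4L), ENSSSCG00000018091 (ND5), ENSSSCG00000018092 (ND6) and ENSSSCG00000018094 (CYTB). None of the 8 had a value of exactly 0 beside a high value in the same tissue, whereas the COX and ATP genes of the same genome had 34 such values in 10 libraries and were kept apart.

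The study sequenced RNA from 9 tissues of 10 pig breeds at 60 days of age, plus mixtures called a pool by the submitters, for use in gene annotation. The 92 libraries comprised 10 each of psoas major, longissimus dorsi and spleen, 9 each of heart, liver, kidney, subcutaneous adipose and ovary, 8 of lung, and 9 mixtures of unstated make-up. Psoas major is a muscle of the loin and longissimus dorsi the large back muscle. Tibetan wild boar, Rongchang, Meishan, Jinhua and Bamei are here called Chinese breeds, and Piétrain, Large White, Landrace, Hampshire and Berkshire Western ones, an assignment from general knowledge. No treatment was named, each breed had 1 library per tissue at most, and Tibetan wild boar had only spleen and the pair of muscles. Neither the number of animals behind a library nor any pooling of animals was stated, so the spread between libraries is a spread between breeds and libraries together.

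Complex I of the respiratory chain takes electrons from NADH, passes them to ubiquinone and pumps protons across the inner mitochondrial membrane. ND1 to ND6 and ND4L form the core of its membrane arm, and its other subunits come from nuclear genes. CYTB encodes cytochrome b, the one mitochondrially encoded subunit of complex III, which takes electrons on from ubiquinol to cytochrome c. Mitochondrial DNA is transcribed as long precursors from both strands. ND6 is the one member read from the light strand, and ND4L and ND4 are known to stay together on 1 mRNA. In the RefSeq annotation of assembly Sscrofa11.1, ND4L and ND4 share 7 bases and ND5 and ND6 share 17 bases. Reads in the stretch shared by ND4L and ND4, which lie on the same strand, cannot be assigned. Whether the libraries kept strand was not stated, so reads of ND6 cannot be told apart from heavy-strand RNA over the same bases.

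Levels are given as scaled FPKM, the deposited FPKM (fragments scaled to gene length and to the mapped total) divided by a factor per library so that the median gene is alike. FPKM is per length, but the 8 genes run from 297 bases (ND4L) and 346 (ND3) to 1821 (ND5). How well FPKM compares genes of such unlike length was not tested, so an order of genes is one of FPKM only. The total FPKM of a library lay between 519075 and 2196140, and the scaling factors between 0.523 and 1.69. The depth of the libraries relative to each other lay between 0.718 and 1.38. It was estimated from the most frequent ratio between libraries of values from 0.004 to 0.4 FPKM. All 35 tissue markers measured were highest in their own tissue, with either skeletal muscle counted for the muscle markers. The markers were chosen with earlier results of these data known, so this is no independent check of the tissue labels. Of 4 markers of red blood cells 3 were highest in spleen and 1 in kidney. Each library's 8 genes together took a median of 4.52% of its total FPKM, with a range from 0.673% to 14.8%. The top of this range was the psoas major of Jinhua, a library whose total lacks 4 COX or ATP genes.

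By mean scaled FPKM, the 8 genes were highest in the 3 muscles, psoas major, heart and longissimus dorsi, and lowest in ovary. With this scaling, the mean level differed between the tissue with the highest mean and ovary by 17.1-fold for ND3. For the other 7 genes it differed by 23.2-fold to 40.7-fold, with CYTB at the top. With other scaling these differences were smaller. Over the 8 genes, psoas major over ovary lay between 4.091 and 5.383 log2 units with this scaling. It lay between 2.711 and 4.004 with FPKM as deposited, and between 1.005 and 3.485 after quantile normalization. For heart over ovary the ranges were 3.664 to 5.143, 2.720 to 4.201 and 0.943 to 3.672 in the same order. As a share of total FPKM, the 8 genes together took a median of 9.95% in psoas major, 9.68% in heart, 6.96% in longissimus dorsi, 4.81% in subcutaneous adipose, 4.18% in kidney, 2.89% in liver, 2.18% in spleen, 1.79% in lung and 1.21% in ovary. In 5 of 10 psoas major, 4 of 9 heart and 1 of 10 longissimus dorsi libraries, COX or ATP values were lost and added nothing to that total. The shares of these libraries are higher than they would be with those values, by an amount that was not tested. The muscle shares are therefore not fully comparable with those of the other tissues. In bulk tissue, fewer cells rich in mitochondria and less mitochondrial RNA per cell cannot be told apart.

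**Figure D1:**
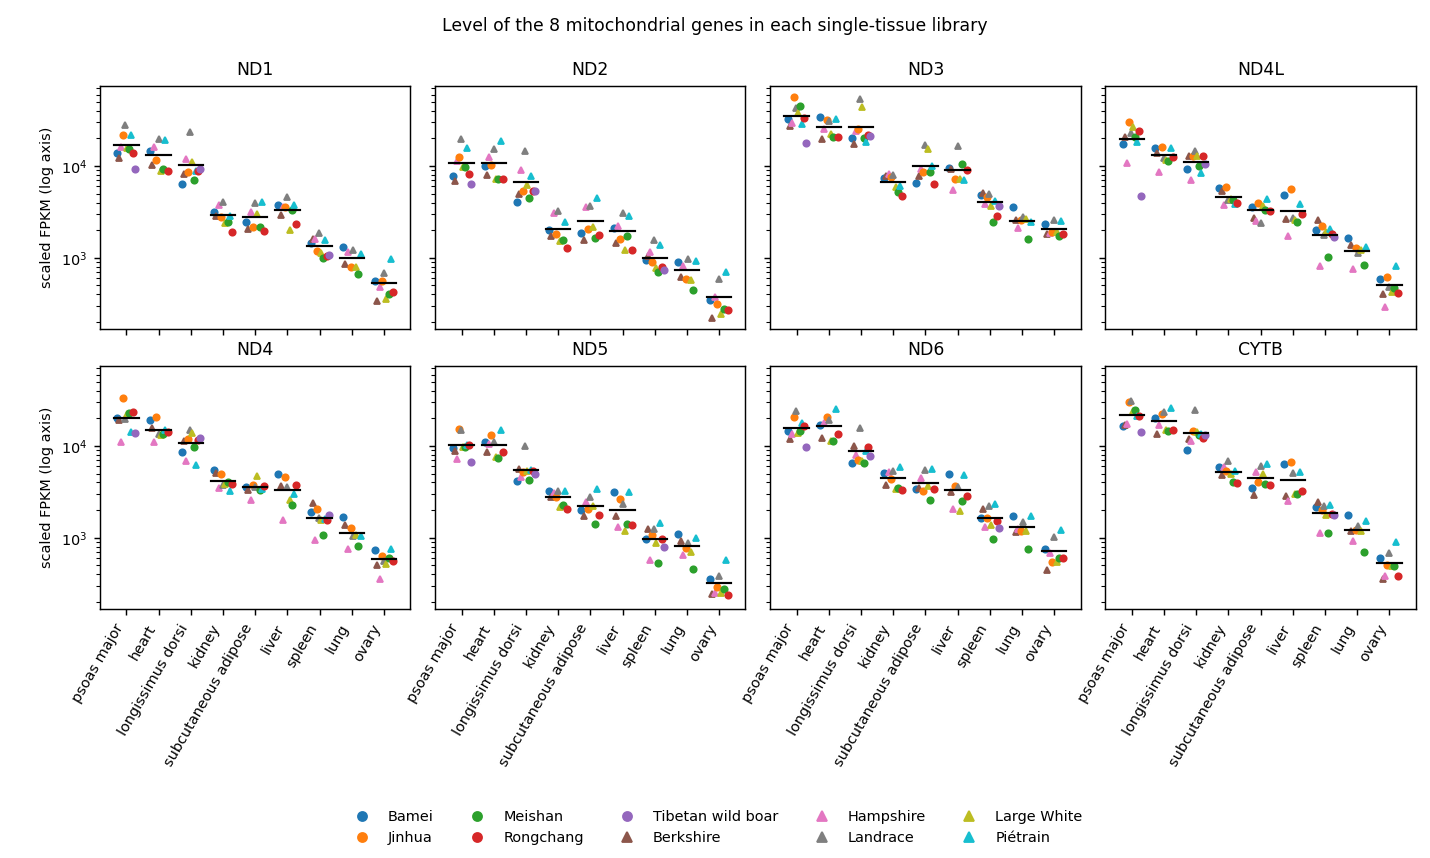
Level of each of the 8 genes in the 83 single-tissue libraries, 1 panel per gene, as scaled FPKM on a log axis, with tissues along the horizontal axis. Each point is 1 library, coloured by breed (circles Chinese, triangles Western), and each black bar is the mean of the tissue; the points fall by more than 10-fold from the muscles on the left to ovary on the right.

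CYTB, the complex III member, shows the whole span. In psoas major it ran from 14041 through a median of 21318 to 30862 scaled FPKM, in heart from 13659 through 16924 to 25746, and in longissimus dorsi from 8924 through 13268 to 24881. Kidney (3901 to 6848), subcutaneous adipose (2921 to 6340) and liver (2534 to 6680) formed an overlapping middle set. Spleen followed at 1112 to 2465 scaled FPKM, lung at 701.5 to 1779 and ovary at 359.1 to 905.6. The 3 muscles overlapped each other and lay wholly above all 6 other tissues, and ovary overlapped only lung. The mean was 21713 ± 5804 in psoas major (SD, n = 10) and 533.3 ± 175.6 in ovary (SD, n = 9), with a difference in the limma fit of 5.38 ± 0.14 log2 units (SE, Benjamini-Hochberg adjusted p = 5.88e-46).

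Among the complex I genes, ND3, one of the smallest core subunits, had the highest FPKM of the 8 in 83 of 83 libraries. Its level ran from 17718 through a median of 32958 to 56621 scaled FPKM in psoas major, and from 1736 through 1922 to 2582 in ovary. ND2 and ND5, which form parts of the proton-pumping membrane arm, were at the other end: ND2 was the lowest of the 8 in 48 libraries, ND5 in 31, ND4L in 3 and ND4 in 1. ND5 ran from 7297 through 10432 to 15015 scaled FPKM in heart, and from 240.0 through 276.1 to 570.8 in ovary. These ranges were far apart, and ND5 was higher in heart than in ovary by 5.04 ± 0.13 log2 units in the fit (SE, adjusted p = 8.66e-46).

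The order of the tissue means was psoas major, heart, longissimus dorsi, kidney, subcutaneous adipose, liver, spleen, lung, ovary for CYTB, ND4 and ND4L. ND5 and ND6 had heart before psoas major and otherwise the same order. ND1 had liver and ND2 had subcutaneous adipose next after longissimus dorsi, and ND3 had longissimus dorsi before heart, followed by subcutaneous adipose, liver and kidney. The next test asks which neighbours in these orders differ.

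Across the 36 pairs of tissues, 269 of the 288 tests of the 8 genes passed an adjusted p under 0.05 (limma with breed as a block, adjusted over all genes and pairs), where 68.9% of all tests of all genes passed. Each of the 8 genes passed in 33 or 34 of the 36 pairs, against 26 pairs for the median gene. The 19 tests that did not pass lay between neighbours in these orders, except for ND1 in liver and subcutaneous adipose, which stand 2 places apart. A test that did not pass does not show equal levels. Heart over psoas major did not pass for ND2, ND5, ND6 and CYTB, and heart over longissimus dorsi did not for ND3 and ND4L. Kidney over subcutaneous adipose did not pass for ND1, ND4, ND6 and CYTB, liver over subcutaneous adipose for ND1, ND3, ND4, ND4L, ND5 and CYTB, liver over kidney for ND1 and ND2, and lung over ovary for ND3.

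These differences depend on how libraries are made comparable. With FPKM as deposited, the median of all genes moved by -0.92 log2 units in longissimus dorsi over ovary, the pair with the largest such move. Of the 288 tests, 219 gave the same call in the same direction with the median-ratio scaling, with FPKM as deposited and with quantile normalization. In 19 of the 36 pairs that held for 8 of 8 genes, among them heart over liver, spleen, lung, kidney and ovary, psoas major over ovary, and longissimus dorsi over ovary. In heart over psoas major it held for 0 of 8 genes: the log2 difference lay between -0.54 and 0.02 with median-ratio scaling, between -0.11 and 0.46 as deposited and between -0.06 and 0.49 after quantile normalization. The order of psoas major and heart is therefore not given by these data, and spleen over lung (0 of 8), liver over spleen, liver over lung, kidney over subcutaneous adipose and longissimus dorsi over subcutaneous adipose (1 of 8 each) also turned on the scaling, as did kidney over longissimus dorsi and liver over subcutaneous adipose (2 of 8 each). The place of ovary at the bottom turned on the scaling for ND3: after quantile normalization the log2 difference from ovary was -0.18 in liver, -0.24 in spleen and -0.46 in lung, of which the last passed (adjusted p = 0.0113), against 2.09, 0.99 and 0.25 with median-ratio scaling. Without the 10 libraries in which a COX or ATP value was lost, 265 of the 288 tests passed, and the 4 genes called lower in heart than in psoas major (ND1, ND3, ND4 and ND4L, where 26.1% of all genes were called lower) no longer passed. This alternative was chosen after seeing the data.

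Set against ovary, nuclear genes of the same complexes had smaller ratios than the 8 genes. Other pairs of tissues went either way. The 8 genes summed to 118578 scaled FPKM in heart and 4849 in ovary, a ratio of 24.5, while the 20 nuclear complex I subunits measured (of 37 listed) summed to 8197 in heart and 1232 in ovary, a ratio of 6.65. The 6 nuclear complex III subunits measured differed by 11.2-fold in the same pair. In psoas major over ovary the ratios were 31.0 for the 8 genes, 6.08 for nuclear complex I and 11.3 for nuclear complex III. All 3 groups passed in full in heart over ovary, with 8 of 8, 20 of 20 and 6 of 6 higher where 33.1% of all genes tested were higher, and with a median log2 difference of 4.72, 2.45 and 3.49. The difference between the groups was not tested. Against subcutaneous adipose, with sums of 118578 scaled FPKM in heart and 29942 in subcutaneous adipose for the 8 genes, and of 8197 and 1375 in the same tissues for nuclear complex I, the ratio was the larger one for the nuclear genes. In psoas major over longissimus dorsi it was the smaller one for nuclear complex I. The sums there were 150143 and 83541 scaled FPKM for the 8 genes, and 7495 and 7372 for nuclear complex I. Lung, at 842.6, and not ovary, at 1232, had the lowest nuclear complex I sum. Levels of the 8 genes over the nuclear complex I sum were 21.8 in subcutaneous adipose, 20.0 in psoas major, 18.8 in kidney, 14.5 in heart, 13.3 in spleen, 12.7 in liver, 11.7 in lung, 11.3 in longissimus dorsi and 3.94 in ovary.

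Over the 83 single-tissue libraries, the 8 nuclear genes with a symbol most like the mean log2 level of the 8 mitochondrial genes were MDH1 (r = 0.956), UQCRC2 (0.947), SLC25A46 (0.946), SLC25A3 (0.943), PDHB (0.943), SUCLA2 (0.941), DLD (0.938) and MPC2 (0.928), out of 10509 genes ranked. Of the 16889 genes kept, those without a symbol were not ranked. UQCRC2 is a core subunit of complex III, SLC25A3 carries phosphate into mitochondria, MPC2 carries pyruvate, PDHB and DLD belong to pyruvate dehydrogenase, and SUCLA2 is an enzyme of the citric acid cycle. The same correlation was 0.992 for COX2, the one COX or ATP gene with no lost value, a median of 0.915 over 6 nuclear complex III subunits, 0.878 over 4 complex II subunits, 0.877 over 20 nuclear complex I subunits, 0.557 over 9 genes of mitochondrial transcription and DNA copying, and -0.115 over all genes kept. These are descriptions over libraries that share tissue and breed.

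Psoas major carried more of the 8 genes than longissimus dorsi in most breeds. In the 10 paired breeds 7 of 8 genes were higher in psoas major (limma, breed as a block, adjusted p under 0.05), where 11.7% of all genes tested were higher and 15% lower. The largest differences were in ND5 (0.90 ± 0.11 log2 units, 1.86-fold, adjusted p = 0.00023), ND4 (0.89 ± 0.12, 1.85-fold, adjusted p = 0.000531) and ND6 (0.85 ± 0.12, 1.81-fold, adjusted p = 0.000535). The median over the 8 genes was 0.72 and that over all genes -0.02.

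**Figure D2:**
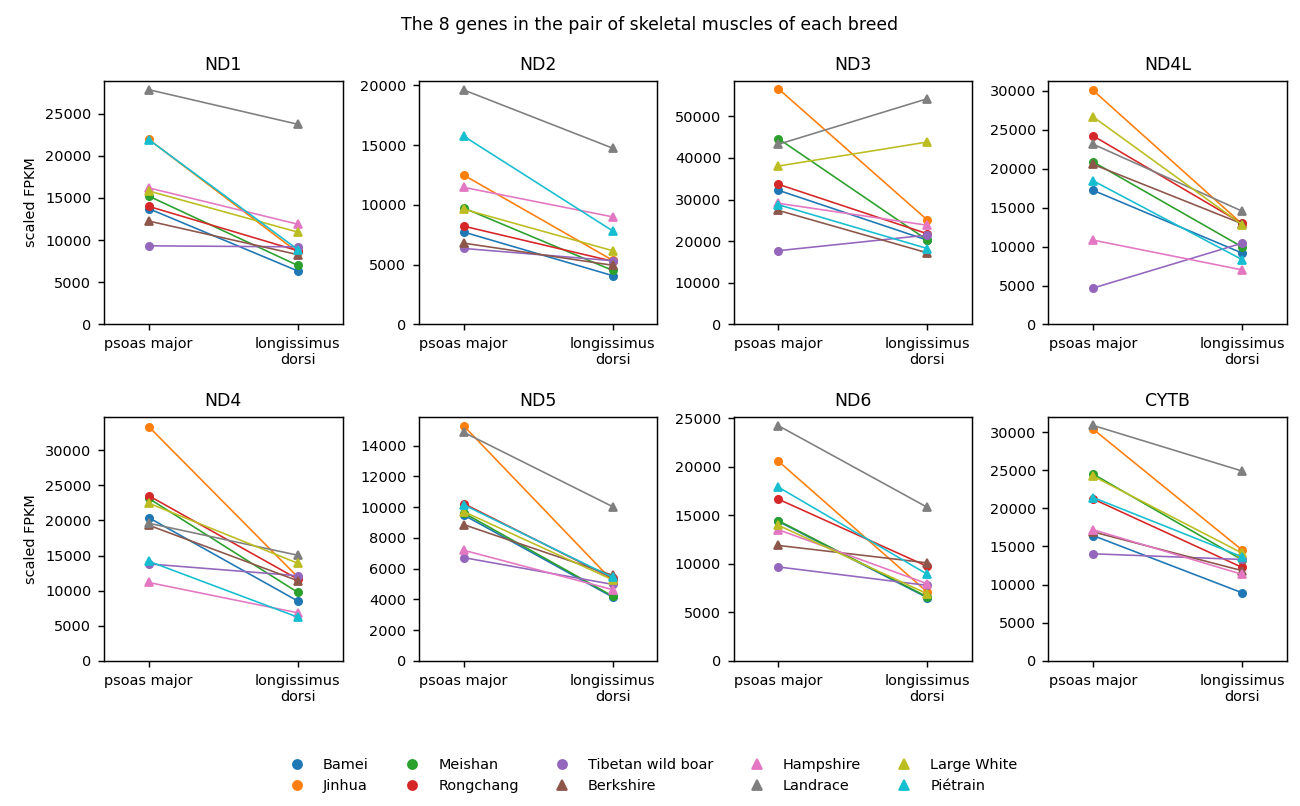
Scaled FPKM of each gene in psoas major (left) and longissimus dorsi (right), 1 line per breed and 1 panel per gene, on linear axes that start at 0. Lines run down to the right in all 10 breeds for ND1, ND2, ND4, ND5, ND6 and CYTB, and against the rest in Landrace, Large White and Tibetan wild boar for ND3 and in Tibetan wild boar for ND4L.

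ND5 ran from 6719 through a median of 9669 to 15296 scaled FPKM in psoas major, and from 4152 through 5235 to 10032 in longissimus dorsi. The longissimus dorsi of Landrace, at 10032, was the only one above the lowest psoas major. Within breeds the ratio lay between 1.35 in Tibetan wild boar and 2.94 in Jinhua, and was above 1 in 10 of 10. ND4 ran from 11163 through 19990 to 33339 scaled FPKM in psoas major, and from 6227 through 11526 to 15036 in longissimus dorsi. Here the ranges overlapped, and the ratio was above 1 in 10 of 10 breeds and highest in Jinhua at 2.79. With FPKM as deposited, the ratio was above 1 in 9 of 10 breeds for ND1, ND4 and CYTB.

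ND1, which lies next to the ubiquinone channel, was higher by 0.74 ± 0.14 log2 units (adjusted p = 0.00223), ND2 by 0.70 ± 0.11 (adjusted p = 0.000789) and CYTB by 0.66 ± 0.10 (adjusted p = 0.000699). Landrace had the highest longissimus dorsi level for each: 23737 scaled FPKM of ND1 against 6342 to 11886 in the other 9 breeds, for example.

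ND4L behaved differently in 1 library. It ran from 4677 through 20720 to 30060 scaled FPKM in psoas major, and from 7003 through 11629 to 14544 in longissimus dorsi. The lowest psoas major value was that of Tibetan wild boar, where the ratio to longissimus dorsi was 0.448, while the other 9 breeds had more ND4L in psoas major. In the same pair of libraries ND4 was at 13801 in psoas major and 12121 in longissimus dorsi, and ATP8, another short gene of this genome, at 18089 and 63300 scaled FPKM. ND4L passed with all breeds (0.71 ± 0.19, adjusted p = 0.0181) and not after quantile normalization (adjusted p = 0.0686).

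ND3 did not pass. It ran from 17718 through 32958 to 56621 scaled FPKM in psoas major, and from 17195 through 21625 to 54251 in longissimus dorsi, with nearly full overlap. It was higher in psoas major in 7 of 10 breeds, with the lowest ratio, 0.798, in Landrace, and a difference of 0.44 ± 0.16 log2 units (adjusted p = 0.0568). In the fit over all 9 tissues, which takes its spread from 83 libraries, the same difference passed (adjusted p = 0.00717). Landrace, Large White and Tibetan wild boar were the breeds with less ND3 in psoas major, so leaving 1 of them out raises the difference. Without each of these in turn the adjusted p was 0.0304, 0.0432 and 0.0276, from which no difference is read. With each of the 10 breeds left out in turn, the log2 difference lay between 0.36 and 0.53.

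Some of the breeds had lost COX or ATP values in these muscles. In the psoas major of Jinhua, Landrace, Meishan, Piétrain and Rongchang 3 or 4 of these genes were listed at 0, and so were 3 in the longissimus dorsi of Landrace. The summed deposited FPKM of the 8 genes was 88929 to 142480 in these 5 psoas major libraries and 43060 to 100094 in the other 5. With only the other 5 breeds, an alternative chosen after seeing the data, the 8 log2 differences lay between 0.23 (ND3) and 0.76 (ND5), all above 0, and 1 of 8, ND5, passed (adjusted p = 0.0347), with 353 genes called in all against 3469 with 10 breeds. Without breed as a block 5 of 8 passed, ND2 (adjusted p = 0.083) and ND4L (adjusted p = 0.115) being lost, and 650 of all genes.

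Markers of tissue also differed between the muscles. The 5 markers of skeletal muscle summed to 16513 to 48563 scaled FPKM in psoas major and 23272 to 75121 in longissimus dorsi: MYL1, TNNC2, MYOZ1 and ATP2A1, genes of fast fibres, were lower in psoas major and MYBPC1, a gene of slow fibres, was higher. The 2 adipose markers summed to 2.42 to 10.3 scaled FPKM in psoas major and 6.48 to 27.7 in longissimus dorsi, and both were lower in psoas major. The 6 liver markers summed to 0.119 to 6.27 scaled FPKM in psoas major and 0.131 to 114.4 in longissimus dorsi, and 5 of them were lower in psoas major. The 4 heart markers summed to 1420 to 5416 scaled FPKM in psoas major and 835.3 to 2942 in longissimus dorsi. Of the 2 that could be tested, TNNT2, cardiac troponin T, was lower in psoas major (-1.16 ± 0.21, adjusted p = 0.00233) and MYL3, a myosin light chain of heart and slow muscle, was higher (0.61 ± 0.19, adjusted p = 0.0311). Of 2 ovary markers tested GDF9 was higher (0.30 ± 0.06), and none of 2 lung and 2 red blood cell markers tested passed. The part of these markers in the result was not tested.

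Of the other genes of the mitochondrial genome, 4 of 5 were higher in psoas major with lost values left out as missing: COX2 by 0.71 ± 0.11 log2 units over all 10 breeds (adjusted p = 0.000889), COX1 by 1.02 ± 0.15, COX3 by 0.56 ± 0.14 and ATP6 by 0.56 ± 0.17, the last 3 over fewer breeds. Nuclear subunits were called in both directions, and the counts of the following lists stand beside 11.7% higher and 15% lower over all genes. Of 20 nuclear complex I subunits 3 were higher and 2 lower, a share near that of all genes, with a median of 0.09: NDUFS1, an iron-sulfur subunit, was higher by 0.53 ± 0.09 and NDUFB5 by 0.28 ± 0.09, while NDUFB9 (-0.36 ± 0.07) and NDUFB1 (-0.47 ± 0.15) were lower. Of 11 complex I assembly genes 4 were higher, NDUFAF7, NDUFAF5, NDUFAF1 and NDUFAF6, by 0.22 to 0.32.

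Of 6 nuclear complex III subunits 3 were higher, UQCRC2 by 0.53 ± 0.08, UQCRFS1, the Rieske protein, by 0.49 ± 0.08, and UQCRC1 by 0.28 ± 0.08. The complex III assembly factor UQCC2 was lower (-0.67 ± 0.09), 1 of 2 measured. Of 4 complex II subunits SDHC (0.48 ± 0.12) and SDHD (0.24 ± 0.08) were higher. Among genes that make and keep mitochondrial RNA, 4 of 9 for transcription and DNA copying were higher: the helicase TWNK by 0.43 ± 0.08, the elongation factor TEFM by 0.39 ± 0.08, MTERF1 by 0.47 ± 0.11 and the transcription factor TFB2M by 0.44 ± 0.12. Of 17 genes for RNA processing and stability 6 were higher and 1 lower. LRPPRC, which holds mitochondrial mRNAs stable, was higher by 0.54 ± 0.07, whereas SLIRP, its partner, was lower (-0.54 ± 0.11), and FASTKD2 and FASTKD1 were higher by 0.45 ± 0.08 and 0.39 ± 0.07. ESRRA, a nuclear receptor that drives mitochondrial genes, was the 1 of 6 biogenesis regulators that was higher (0.49 ± 0.11, adjusted p = 0.00696). All these calls are from the same limma fit at an adjusted p under 0.05.

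**Figure D3:**
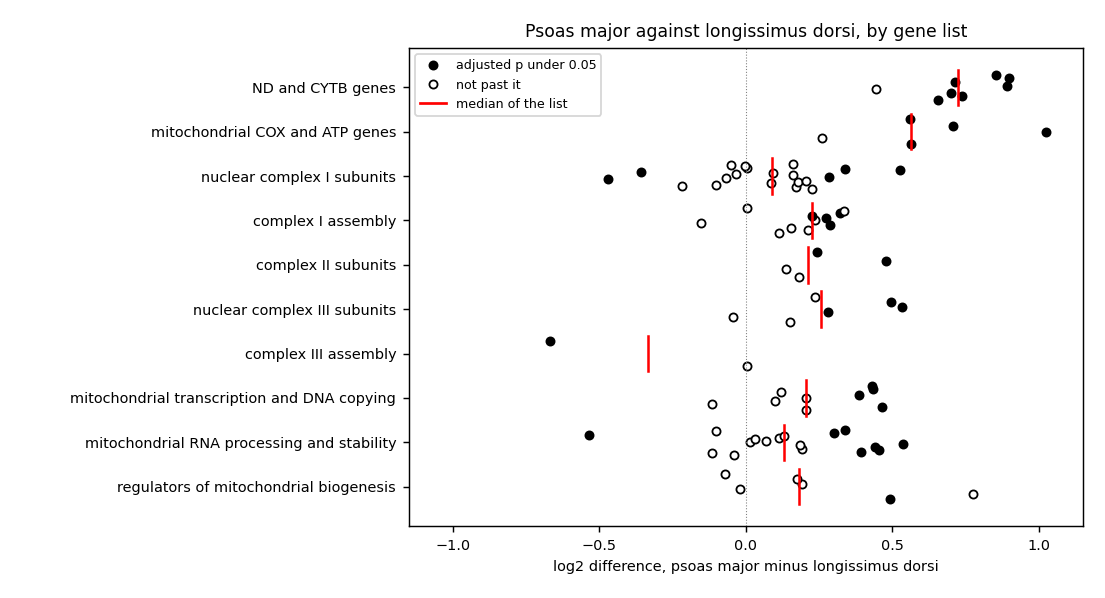
Log2 difference of psoas major minus longissimus dorsi for each measured gene of 10 lists, over the paired breeds; filled points passed an adjusted p under 0.05 and red bars are list medians. The 8 ND and CYTB genes lie between 0.44 and 0.90, and the nuclear complex I subunits around a median of 0.09.

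Within a library, the balance among the 8 genes also differed by tissue, a measure that needs no scaling between libraries. ND6, annotated on the light strand, was set against the mean log2 level of the other 7. This ratio averaged 0.30 ± 0.22 in ovary (SD, n = 9), 0.22 ± 0.21 in kidney, 0.20 ± 0.16 in lung, 0.17 ± 0.16 in heart and 0.13 ± 0.21 in subcutaneous adipose. It was 0.02 ± 0.14 in spleen, -0.05 ± 0.20 in liver, -0.15 ± 0.18 in psoas major and -0.28 ± 0.27 in longissimus dorsi. It was thus lowest in both skeletal muscles, and above 0 in heart. As strand was not stated, ND6 values may count RNA of either strand, and the ratio is one of reads over the ND6 gene.

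Over breeds paired within each pair of tissues (exact two-sided sign-flip permutation test, adjusted over 108 tests), 21 of 36 pairs differed in the ND6 ratio. In psoas major against ovary the log2 ratio was lower in 9 of 9 breeds, with means of -0.17 and 0.30 (exact p = 0.00391, the smallest that 9 pairs allow, adjusted p = 0.0169). In heart against psoas major it was higher in 9 of 9 breeds, with means of 0.17 and -0.17 and the same exact p and adjusted p. Psoas major against longissimus dorsi did not pass.

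CYTB set against the mean log2 of ND1, ND2, ND3, ND4, ND4L and ND5 averaged 0.55 ± 0.13 in kidney and -0.12 ± 0.14 in ovary (SD, n = 9 each), the highest and the lowest tissue. In kidney against ovary it was higher in 9 of 9 breeds (exact permutation p = 0.00391, adjusted p = 0.0169). Ovary was lower than each of the other 8 tissues in this ratio, and 19 of 36 pairs passed in all. ND3, which enters the mean that CYTB is set against, was itself relatively high in ovary. Relative to the mean log2 of the 8 genes in a library, ND3 averaged 1.85 in ovary. In the other 8 tissues it averaged 0.81 (kidney) to 1.43 (liver). The ratio without ND3 was not tested. The count of pairs that passed was 12 without any 1 of Landrace, Large White or Piétrain.

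ND4L over ND4, a pair on 1 mRNA, differed in 12 of 36 pairs. As a log2 ratio it averaged 0.14 ± 0.08 in kidney, -0.21 ± 0.13 in heart and -0.24 ± 0.16 in ovary (SD, n = 9 each). Heart was lower in this ratio than psoas major, longissimus dorsi, spleen, lung and kidney in every breed compared. The Tibetan wild boar psoas major stood at -1.56, against -0.24 to 0.38 in the other 9 psoas major libraries.

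**Figure D4:**
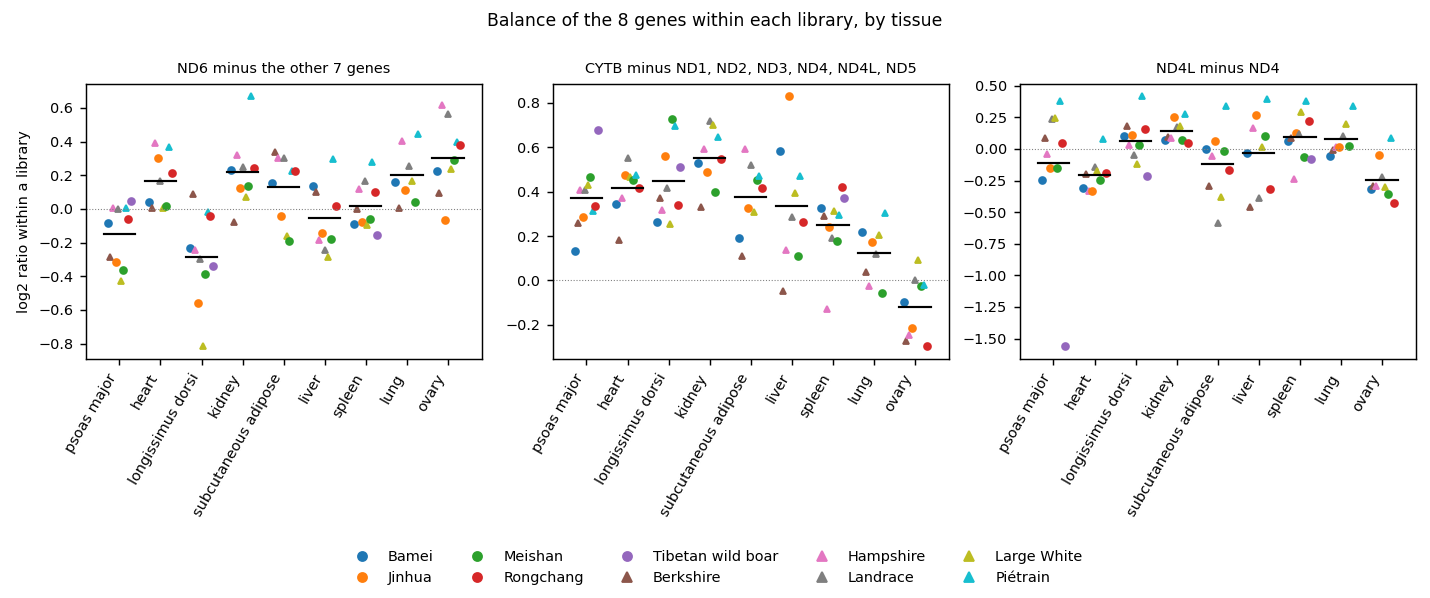
Log2 ratios within each single-tissue library: ND6 minus the mean of the other 7 genes (left), CYTB minus the mean of 6 ND genes (middle) and ND4L minus ND4 (right), by tissue, with 1 point per library (circles Chinese, triangles Western breeds) and bars at tissue means. The ND6 ratio is lowest in longissimus dorsi and psoas major, and the CYTB ratio is lowest in ovary; the psoas major point at -1.56 on the right is Tibetan wild boar.

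Breed took a small share of the variance of the levels and a large share of that of the balance for some of the genes. These shares are of different totals, since taking out the mean of the 8 removes variance that the genes have in common. Over 72 libraries (9 breeds, 8 tissues without lung), tissue took 91.7% (ND2) to 95.3% (CYTB) of the variance of each gene's log2 level, against 82.7% for the median of 16889 genes. Breed took 2.25% (CYTB) to 6.85% (ND2), against 4.23% for the median gene. When each gene was instead taken relative to the mean of the 8 in the same library, breed took 89.0% of the variance of ND4, 79.0% of ND2, 62.2% of ND4L and 46.0% of ND1, but 10.3% of CYTB and 12.9% of ND3.

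The sharpest case, picked after the values were seen, was ND2 over ND4, of whose log2 ratio breed took 88.0% and tissue 6.13%. The ratio of FPKM had a median over tissues of 1.14 in Hampshire (0.885 to 1.45), 0.981 in Landrace (0.862 to 1.14) and 0.952 in Piétrain (0.756 to 1.303). In Meishan it was 0.499 (0.387 to 0.754), in Bamei 0.479, in Large White 0.475, in Rongchang 0.469, in Jinhua 0.450, in Tibetan wild boar 0.440 and in Berkshire 0.437 (0.345 to 0.501). In each of the 9 tissues and in the mixtures, which makes 10 of 10 groups of libraries, the 3 highest ratios were those of Hampshire, Landrace and Piétrain. The groups share the same breeds, and whether also the same animals is not stated, so they are not 10 independent repeats. Breed, animal and deposited set cannot be told apart for this ratio either. The gap to the next breed was narrowest in liver, where Landrace had 0.864 and Meishan 0.754, and wide in heart, where Landrace had 1.14 and Large White 0.555.

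Both genes took part. The geometric mean over 8 tissues of ND2 was 4424 scaled FPKM in Landrace, 4029 in Piétrain and 3291 in Hampshire, and 1925 to 2421 in the other 6 breeds with these tissues. ND4 was lowest in Hampshire at 2822, followed by Piétrain at 3877 and Meishan at 3961, whereas Landrace, at 4523, lay among the rest, which reached 5560. ND5 over ND4 had a median of 0.957 in Piétrain, 0.841 in Hampshire and 0.759 in Landrace, and 0.455 to 0.558 in the other 7 breeds. ND1 over ND2 varied less, with medians from 1.16 in Piétrain to 1.56 in Jinhua. With tissue means removed, the log2 levels of ND2 and ND4 were uncorrelated over the 83 libraries (r = 0.005), those of ND1 and ND2 had r = 0.94, ND5 and ND6 had r = 0.93 and ND4 and ND4L had r = 0.82. These libraries share breeds and tissues, and the values are a description.

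**Figure D5:**
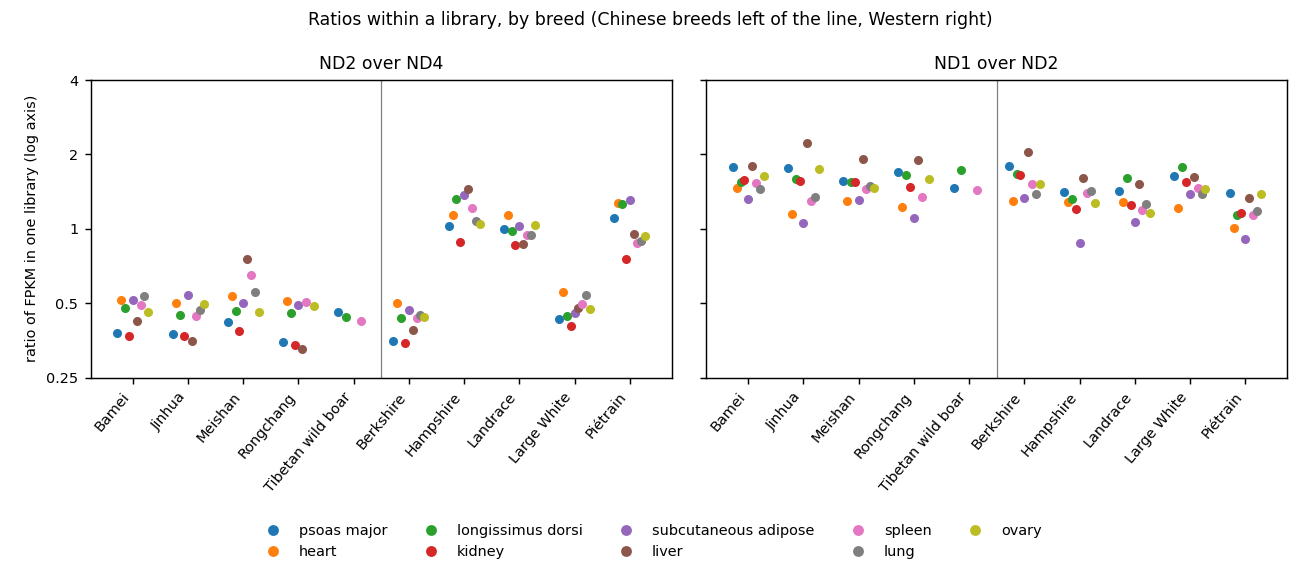
Ratio of FPKM of ND2 over ND4 (left) and ND1 over ND2 (right) within each single-tissue library, on a log axis, by breed, with points coloured by tissue. On the left Hampshire, Landrace and Piétrain lie between 0.756 and 1.45 and the other breeds between 0.326 and 0.754; on the right the breeds overlap.

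None of the 8 genes passed a test of Chinese against Western breeds, which does not show that the origins are alike. As geometric means over 8 tissues, ND2 was at 1925, 2018, 2304 and 2421 scaled FPKM in the 4 Chinese breeds with these tissues, and at 1988, 2070, 3291, 4029 and 4424 in the 5 Western breeds. Berkshire and Large White lay among the Chinese breeds, so the groups overlapped, and so they did for the other 7 genes. ND2 had the smallest p, with a difference of -0.47 ± 0.24 log2 units (adjusted p = 0.679), and ND4 went the other way at 0.24 ± 0.16 (adjusted p = 0.792). In this limma test 0 of 8 genes passed and 0 of 8 had an unadjusted p under 0.05, where 0.314% of all genes passed.

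Within single tissues, 0 of 72 tests passed, where 0.111% of all tests of all genes did, and 7 of 72 had an unadjusted p under 0.05 in limma. These were ND1 and ND2 in spleen, ND2 in longissimus dorsi, and ND1, ND2, ND3 and ND6 in subcutaneous adipose, all lower in Chinese breeds, the largest being ND2 in longissimus dorsi (-0.70 ± 0.27, adjusted p = 0.648). The share of all genes with an unadjusted p under 0.05 was not counted, so the 7 have no background beside them. Genes of the same libraries are not independent tests, and no difference is read from the 7. Whether the difference between origins changed with tissue was tested with an F test, in which 0 of 8 genes passed and 0 had an unadjusted p under 0.05, where 2.42% of all genes passed.

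The 9 mixtures held 3.14% to 8.16% of their FPKM in the 8 genes. In 8 breeds the mixture was set against the mean of the same breed's 9 tissues. The ND4 level was 2722 to 5425 scaled FPKM over the mixtures, and 8 of 8 genes were lower in the mixture than in that mean by 0.57 to 0.70 log2 units, where 47.7% of all genes were lower, 17.8% were higher and the median of all genes was -0.13. With FPKM as deposited 1 of 8 passed, ND4, and after quantile normalization 5 of 8 passed as higher, so the data give no direction.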

How the data were processed

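RNA from 9 tissues and from mixtures of 10 pig breeds was extracted with TrIzol and made into libraries with the TruSeq RNA kit, per the labels' protocols. TopHat and Cufflinks 2.2.1 with genome build Sscrofa10.2 are named per the submitters' processing notes. The deposited values are taken as FPKM from that tool and from the values themselves, since the labels name no unit. The strand of counting, and the treatment of reads from nuclear copies of mitochondrial DNA, are not given in the sources used here, and read depth is known only in relative terms.

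FPKM were scaled by median ratios over 12500 genes above 0 in all 92 libraries and tested as log2(scaled FPKM + 1), so fold changes of low genes are understated. Genes needed 1 FPKM in at least 3 libraries. A 0 beside 100 FPKM or more in the same tissue was treated as missing, which touched 276 genes and none of the 8. No pair of libraries held identical values. Tests were made with limma 3.58.1 in R 4.3.3 (trend, robust), adjusted by Benjamini-Hochberg over all genes and called under 0.05. Breed was the replicate and, between tissues, the block, since a breed's tissues carry the same breed label. Whether they came from 1 animal is not stated, and p-values measure only the spread between these libraries. Ratios within a library were tested by exact two-sided sign-flip permutation over breeds (numpy 2.4.6, pandas 2.3.3). The tests were also run on simulated data with no lost values. For the tissue, muscle and mixture tests the simulated tissues had equal means except in the changed genes. The check thus does not cover missing values, nor strong tissue differences in these tests.

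All 8 genes are named. Of each other gene list, up to 4 called genes with the smallest p are named, and the 8 nuclear genes of highest correlation among those with a symbol. Of 175 listed symbols 128 were matched. The members and lists were chosen with earlier results of these data known. The alternatives tried were FPKM as deposited, quantile normalization, other pseudocounts and filters, no block, and leaving out each breed.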

Additional observations from a re-analysis of the deposited data

Results flagged for a closer look

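In 12 of 107 groups of 4 to 10 values, 1 library stood apart from the rest by the size of its gap to the nearest value (Dixon's criterion). Its cut-off is set for about 1 flag in 20 among independent groups of normally spread values. The levels were used without logs and the 8 genes of a library are correlated, so the 12 cannot be set against that rate. Landrace accounted for 8 of the 12. In longissimus dorsi Landrace had 23737 scaled FPKM of ND1 (next 11886), 14744 of ND2 (next 8998), 10032 of ND5 (next 5568), 15805 of ND6 (next 10093) and 24881 of CYTB (next 14515). In liver it had 16514 scaled FPKM of ND3 (next 10568), and its mixture had 22240 of ND3 (next 11179) and 9821 of CYTB (next 6207). The same longissimus dorsi library had 3 COX or ATP genes listed at 0, and the part of these values in the levels was not tested. Piétrain had the highest ovary level of ND5, at 571 scaled FPKM (next 384).

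Of the log2 ratios within a library, the CYTB ratio in the Hampshire spleen was -0.13, below the next value of 0.18. ND4L minus ND4 was 0.079 in the Piétrain heart, above the next value of -0.15. In the Tibetan wild boar psoas major it was -1.56, below the next value of -0.24.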

How the results depend on the processing

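Between the 36 tissue pairs 269 tests passed, against 266 with FPKM as deposited, 237 after quantile normalization, 257 with no replicate block and 265 to 269 without each breed in turn. For psoas major over longissimus dorsi the count was 7, 5 with no replicate block, 6 after quantile normalization, and 1 without the 5 breeds with a lost COX or ATP value, an alternative chosen after seeing the data, where fewer breeds also left 353 of all genes called. Of all genes called there, 43.6% were higher, and 53.4% after quantile normalization. With no replicate block the ND6, CYTB and ND4L ratios differed in 16, 17 and 9 pairs. Without each breed in turn the CYTB ratio differed in 12 to 20 pairs.

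Mixtures had 8 genes lower, but 1 with FPKM as deposited, 5 higher after quantile normalization and 1 higher against the mean of log2 values. The log2 differences after quantile normalization were 0.28 (ND1), 0.18 (ND2), 0.20 (ND3), 0.23 (ND4), 0.31 (ND4L), 0.19 (ND5), 0.38 (ND6) and 0.48 (CYTB). Against the mean of log2 values they were 0.25 (ND1), 0.24 (ND2), 0.044 (ND3), 0.13 (ND4), 0.20 (ND4L), 0.23 (ND5), 0.14 (ND6) and 0.29 (CYTB). The cause was not tested. Of all genes called there, 27.1% were higher, and 12.5% after quantile normalization.

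For Chinese over Western breeds the CYTB difference ranged from -0.19 to 0.0088 without each breed in turn, above 0 without Landrace. The count of the 8 genes called was 0 under the alternatives run for origin. Calls over all genes moved more: with a filter at 5 FPKM from 52 to 23 over 8 tissues, from 128 to 29 within tissues and from 402 to 241 for the tissue profile, which had 196 with a pseudocount of 0.1. The median share of variance between breeds was 2.91% over the 8 genes, and 5.08% with FPKM as deposited. FPKM without counts gives no counting error for any value.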
